A study of Homo sapiens and Mus musculus with 10 samples.

Results

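The 7 genes described here write, help to write or remove methyl groups on cytosine: DNMT1, DNMT3A, DNMT3B and DNMT3L on the writing side, and TET1, TET2 and TET3 on the erasing side. They were taken by name from GENCODE, giving 7 of 19970 human protein-coding genes on the autosomes and X, and the mouse genes of the same names are 7 of 21755. For each gene, accessible chromatin was listed at every annotated start site and in the gene body. Chromatin was measured by bulk ATAC-seq, in which the Tn5 transposase inserts sequencing adapters into open DNA, and the authors deposited 1 list of peaks per library. There were 10 libraries from 5 untreated cell lines with 2 replicates each. GM12878 is a B-lymphoblastoid line transformed by Epstein-Barr virus, HEK293T an embryonic kidney line carrying adenoviral and SV40 sequences, HFF1 a foreskin fibroblast line, and K562 a chronic myeloid leukaemia line. The fifth group was mouse embryonic stem cells (mESC) of an unnamed line, grown without feeders in medium with leukaemia inhibitory factor. The labels' protocols give the same steps for all 5 lines: frozen cells were thawed, nuclei were isolated and tagmented, and DAPI-stained nuclei were sorted. The labels do not say that replicates were separate cultures, so the spread between them may be technical.

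DNMT1 copies methylation onto the new strand after DNA replication. DNMT3A and DNMT3B place methyl groups on unmethylated DNA, and DNMT3L has no catalytic activity of its own but stimulates them in germ cells and early embryos. The TET enzymes oxidise 5-methylcytosine to 5-hydroxymethylcytosine and further products, which are lost by dilution or by base excision repair. Several of these genes use more than 1 promoter: DNMT3A has a downstream start that yields a shorter protein known from stem cells and germ cells, DNMT1 has an oocyte start in the mouse, and TET3 has starts that differ in whether the protein carries a CXXC domain.

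A start-site group joins start sites of a gene that lie within 1000 bp of each other, and its window runs from 1000 bp before the first to 1000 bp after the last. A call in a line needed a peak overlapping the window by at least 1 bp in each of its replicates. The main group of a human gene is the one with its MANE Select transcript, the agreed reference transcript. Other groups with a transcript of the consensus coding set are called alternative here. The 7 human genes had 108 transcripts in 35 groups, of which 16 had a peak in at least 1 library and 12 were called in at least 1 line. Of the 10 groups with a transcript in GENCODE's basic set, 8 were called. Over all protein-coding genes, 20.2% of main groups, 52.1% of other groups with a basic transcript and 76.8% of groups without one were called in no human line.

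Sequence differed between the start sites whose accessibility is described below. The RefSeq promoter table (GRCh38.p14) matched 6 of the 7 human genes, all but DNMT3L, and its start was the MANE start for DNMT1, TET1 and TET3. For the other starts the sequence was read from the GRCh38 genome around the GENCODE start. CpG content was taken over 300 bp, from 250 before the start to 50 after it, as observed over expected CpG. The median over 15315 human promoters was 0.768, with a median GC content of 63.0%. The 250 bases before each of 6 starts are shown because these starts differ in CpG content and in peak pattern. A link between CpG content and peak pattern was not tested. Capitals mark CpG dinucleotides, the sites on which these enzymes act (a final capital C pairs with a G at the first transcribed base).

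DNMT3A main, chr2:25341926-25342175, minus strand: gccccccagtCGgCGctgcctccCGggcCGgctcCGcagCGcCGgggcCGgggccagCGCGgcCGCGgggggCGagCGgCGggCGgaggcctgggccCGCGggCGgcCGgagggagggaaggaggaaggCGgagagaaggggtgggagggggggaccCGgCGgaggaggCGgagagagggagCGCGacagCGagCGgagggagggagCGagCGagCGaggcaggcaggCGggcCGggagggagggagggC
DNMT3A alternative, chr2:25252312-25252561, minus strand: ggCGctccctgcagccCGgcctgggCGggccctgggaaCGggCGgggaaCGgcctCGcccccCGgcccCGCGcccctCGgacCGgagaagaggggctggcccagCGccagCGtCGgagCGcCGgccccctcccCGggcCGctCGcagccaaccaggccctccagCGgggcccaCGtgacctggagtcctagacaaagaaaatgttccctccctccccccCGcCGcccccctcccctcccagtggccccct
DNMT3B alternative, chr20:32779602-32779851, plus strand: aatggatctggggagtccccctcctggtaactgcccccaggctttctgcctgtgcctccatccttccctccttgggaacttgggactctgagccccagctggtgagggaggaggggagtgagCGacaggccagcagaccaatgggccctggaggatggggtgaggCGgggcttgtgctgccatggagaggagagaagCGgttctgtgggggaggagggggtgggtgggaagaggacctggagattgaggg
TET1 main, chr10:68560087-68560336, plus strand: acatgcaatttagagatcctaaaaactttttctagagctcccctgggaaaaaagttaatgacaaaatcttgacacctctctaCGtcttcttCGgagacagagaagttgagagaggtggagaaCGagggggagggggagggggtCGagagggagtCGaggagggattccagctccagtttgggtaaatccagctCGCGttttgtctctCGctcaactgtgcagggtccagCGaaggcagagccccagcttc
TET3 main, chr2:73984660-73984909, plus strand: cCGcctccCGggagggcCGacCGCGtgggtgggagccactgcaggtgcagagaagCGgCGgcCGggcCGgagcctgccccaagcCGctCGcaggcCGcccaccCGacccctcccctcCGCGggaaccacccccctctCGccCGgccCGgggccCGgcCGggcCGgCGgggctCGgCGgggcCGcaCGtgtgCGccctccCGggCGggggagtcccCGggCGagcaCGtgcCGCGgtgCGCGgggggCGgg
TET3 alternative, chr2:74002463-74002712, plus strand: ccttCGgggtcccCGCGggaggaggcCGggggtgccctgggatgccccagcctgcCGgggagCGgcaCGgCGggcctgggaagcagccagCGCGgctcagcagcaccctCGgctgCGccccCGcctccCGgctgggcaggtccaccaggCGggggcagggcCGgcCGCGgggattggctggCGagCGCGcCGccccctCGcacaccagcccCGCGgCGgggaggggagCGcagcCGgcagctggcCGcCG

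The TET1 promoter held 9 CpGs in these 250 bases and had an observed over expected CpG of 0.463 over 300 bp, which lay above 27.3% of human promoters. The TET3 main start had 37 CpGs before it and a ratio of 0.878, and the TET3 alternative start had 30 and 0.709. DNMT3A had 33 CpGs and a ratio of 1.02 at its main start and 24 and 0.641 at its alternative start. DNMT3B had a ratio of 0.687 at its main start but only 3 CpGs and a ratio of 0.118 at the alternative start, above 6.56% of promoters. TET2 and DNMT1 had ratios of 1.03 and 0.874. Exact matches of short motifs were searched on both strands of the 300 bp. The SP/KLF motif GGGCGG, held by 59.2% of human promoters, occurred 7 times at DNMT3B main, 5 times at TET2 main, 4 times at DNMT3A alternative, 3 times each at DNMT3A main and TET3 main, and 1 time at TET3 alternative. DNMT1 main held the E2F motif TTTCGCGC, present in 0.836% of promoters, beginning 2 bases before the start. The NFY motif CCAAT was found at the alternative starts of DNMT3B and TET3 and is in 36.6% of promoters. TET1 held none of the 9 motifs searched, which also included CCGGAA (ETS), TGANTCA (AP-1), TTTGGCGC (E2F), the NRF1 palindrome, TGACGTCA (CRE) and ATGCAAAT (octamer). A match describes the letters only.

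The libraries differed in depth, which bears on every comparison with HEK293T. They also differed in total covered length, which bears on every comparison of covered bp between lines. Peaks covered 53.2 and 48.7 Mb in HFF1, 40.5 and 41.1 in GM12878, 30.1 and 27.4 in K562, and 17.4 and 16.9 in HEK293T. The background level, a measure of sequencing depth recovered from the peak values, was 0.465 and 0.466 in HEK293T and between 1.71 and 2.43 in the other human libraries. On the autosomes and X, HEK293T had 52438 and 52137 peaks, the other human libraries 71241 to 127359, and the mESC libraries 138349 and 142194. A peak missing in HEK293T can therefore be a peak that was not detectable at this depth. To look at this, the recovered pileups of the other human libraries were thinned to the HEK293T level, which kept between 58.6% and 74.6% of their peaks, and the calls were repeated. The lines' markers were checked at their start sites. CD79A, CD79B and MS4A1 were called in GM12878 alone, GATA1 and TAL1 in K562 alone, COL3A1 in HFF1 alone, and PAX2 and LHX1 in HEK293T alone, while KLF1 had no peak in K562 and SOX11 none in HEK293T. All 5 stem cell markers were called in mESC.

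At the main start sites, 22 of 28 pairs of gene and human line were called. Over all genes 67.4% of main groups were called in GM12878, 64.1% in HEK293T, 72.7% in HFF1 and 65.7% in K562. DNMT1, DNMT3A, DNMT3B and TET2 were called in all 4 lines, a pattern seen at 55.2% of main groups of protein-coding genes. The other 3 genes each had a different pattern: TET1 lacked a peak in GM12878, TET3 lacked one in HEK293T, and DNMT3L had none in any human library. The plot of covered length by library shows these start sites side by side.

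**Figure D1:**
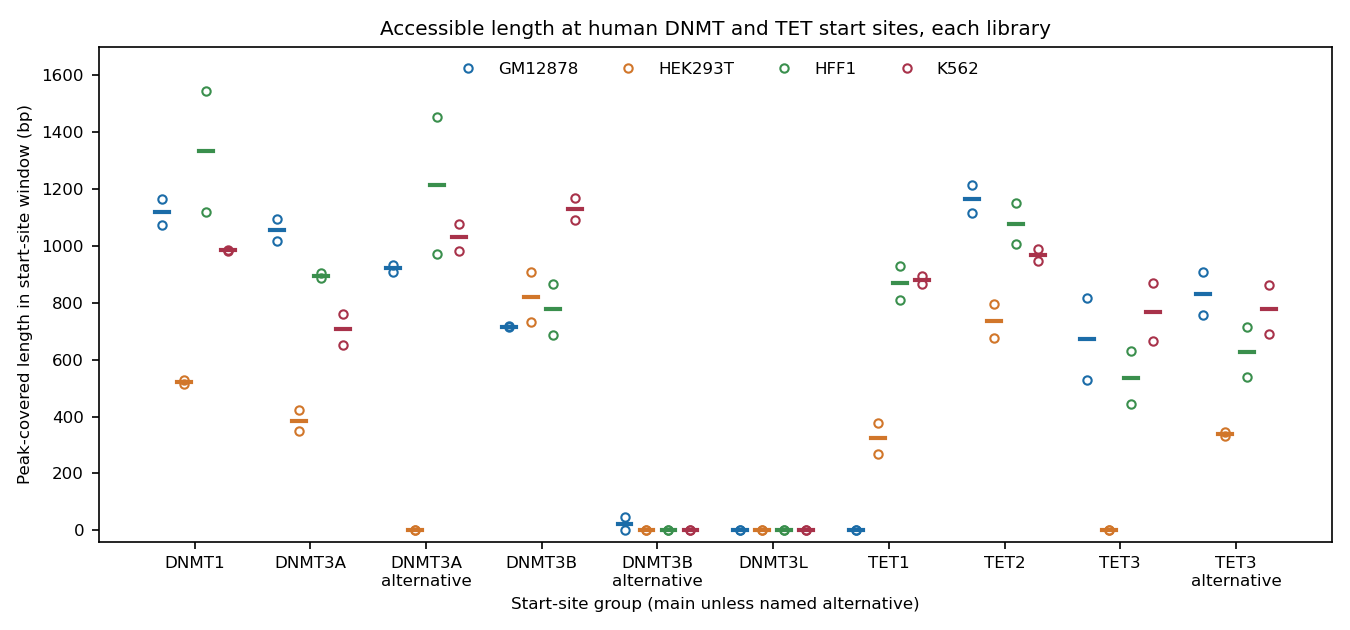
Base pairs covered by peaks in the window of each main and alternative start-site group (vertical axis) for the 4 human lines, with circles for the 2 replicates and a bar for their mean. TET1 sits at 0 in both GM12878 libraries, DNMT3A alternative and TET3 main sit at 0 in both HEK293T libraries, and DNMT3L sits at 0 in all 8.

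DNMT1, the maintenance enzyme, was open at its main start (chr19, first to last start 10194626 to 10195135, GRCh38, minus strand). Peaks covered 1075 and 1164 bp of the window in GM12878, 528 and 514 bp in HEK293T, 1544 and 1121 bp in HFF1, and 987 and 984 bp in K562. HEK293T was lowest in both replicates and did not overlap any other line, while HFF1 and GM12878 overlapped. Eta squared, the share of the variance in covered length that lies between lines, was 0.883 (exact permutation p = 0.0381, adjusted over all start-site groups 0.0995). The strongest peak of each library had its summit between 10194979 and 10195005, and the authors' fold over local background there was between 9.48 and 12.7. Another DNMT1 group far upstream, at 10231273 to 10231286, was also called in all 4 lines, with 293 bp to 943 bp covered. It holds 2 transcripts outside the basic set and shares its window with the start of S1PR2, a sphingosine-1-phosphate receptor gene, so its peak cannot be assigned to either gene. A further one, inside the gene at 10138118 to 10144754, was called in HFF1 alone with 345 and 171 bp.

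DNMT3A, a de novo methyltransferase, had its main group at chr2:25341925-25342590 (minus strand). Covered length was 1094 and 1017 bp in GM12878, 904 and 886 bp in HFF1, 761 and 652 bp in K562, and 422 and 349 bp in HEK293T. The 4 lines did not overlap, eta squared was 0.977, and the exact permutation p of 0.00952 is the smallest the test can give, yet the p adjusted over all groups was 0.0688. The highest peak had its summit between −703 and −608 bp from the MANE start in every library, near the 5′-most annotated start, and the RefSeq table also places the start at −558 bp from the MANE start. In K562 a separate weaker peak lay at the MANE start in both replicates, with folds of 3.35 and 3.66.

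The alternative start of DNMT3A, at chr2:25252132-25252311, belongs to the shorter isoform. It was covered over 932 and 910 bp in GM12878, 1454 and 973 bp in HFF1, 984 and 1077 bp in K562, and 0 bp in both HEK293T libraries. Called in these 3 lines with no peak in HEK293T is a pattern of 2.06% of alternative groups with a basic transcript. The exact permutation p for a difference between lines was 0.0476 (adjusted 0.115). After thinning to the HEK293T depth the peak was kept in both libraries of GM12878 and HFF1 and in 1 of 2 in K562, and among the 40000 strongest peaks of each library the start was called in GM12878 alone. Folds were lower than at the main start: they were 7.53 and 7.80 in GM12878 and between 4.13 and 5.29 in HFF1 and K562, against 9.12 to 12.3 for the highest peak at the main start.

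**Figure D2:**
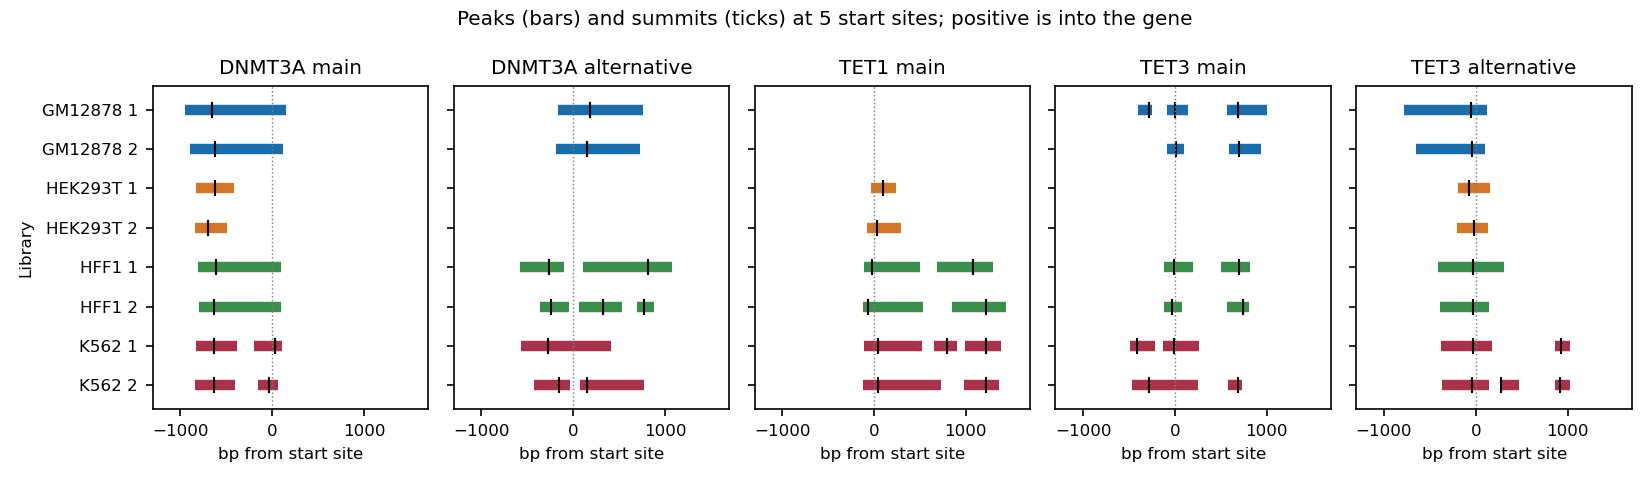
Peaks of each human library (rows) drawn as bars at their distance in bp from 5 start sites of DNMT3A, TET1 and TET3, with black ticks for summits and positive values running into the gene. No peak is drawn for GM12878 at TET1 or for HEK293T at DNMT3A alternative and TET3 main, while TET3 alternative has a peak in all 8 libraries.

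DNMT3B, the other de novo enzyme, was open at its main start (chr20:32762385-32762762, plus strand) in every library. Covered length was 717 and 714 bp in GM12878, 734 and 907 bp in HEK293T, 688 and 866 bp in HFF1, and 1170 and 1090 bp in K562. Only K562 stood clear of the others, and HEK293T was not the lowest line here, unlike at DNMT1 and DNMT3A (exact permutation p = 0.0952, adjusted 0.176). Among the 40000 strongest peaks of each library it was not called in GM12878. Both K562 libraries had a separate peak further into the gene, with folds of 3.76 and 3.12. The alternative start with the low CpG content, at 32779852 to 32780324, was called in no line, although it is the start the RefSeq table gives for DNMT3B, 17467 bp from the MANE start: 1 GM12878 library reached its window by 47 bp, from a peak whose summit lay in the gene body region described below. An internal group of 2 transcripts outside the basic set, at 32791486 to 32792416, was called in GM12878 alone, with 469 and 453 bp covered and folds of 10.3 and 9.89, while 1 HFF1 and 1 K562 library reached it by 26 and 31 bp.

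DNMT3L, the cofactor, had no peak at either of its 2 human start-site groups (chr21, main starts 44261882 to 44262216, minus strand) in any of the 8 human libraries. A main group called in no human line was seen at 20.2% of genes. Its gene body held a peak in 1 GM12878 library (434 bp) and 1 HFF1 library (211 bp), neither found in the other replicate.

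TET1 has a single annotated transcript, with its start at chr10:68560337 (plus strand). No peak reached its window in GM12878, whereas covered length was 270 and 378 bp in HEK293T, 931 and 809 bp in HFF1, and 895 and 866 bp in K562. This pattern, a call in the other 3 lines and no peak in GM12878, was found at 1.48% of main groups, and it was kept after thinning in all libraries. GM12878 lay below every other library and HEK293T between GM12878 and the remaining lines, so that eta squared was 0.988 (exact permutation p = 0.0286, adjusted 0.0809). The peak nearest the start had its summit between −65 and 93 bp from it, with folds of 5.03 and 8.10 in HEK293T, 4.84 and 4.55 in HFF1, and 4.96 and 5.75 in K562. Ranked by p-value from the top of its own list, this peak stood at 80.8% and 28.3% in HEK293T, 51.5% and 56.6% in HFF1, and 26.1% and 19.5% in K562. HFF1 and K562 shared a further peak beginning in the window, with its summit 1083 to 1222 bp inside the gene, which HEK293T did not have. With only peaks of −log10 q of at least 10, TET1 was called in HFF1 and K562, and among the 40000 strongest peaks of each library in K562 alone.

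TET2, which lacks a CXXC domain, had all 9 of its transcripts in 1 group (chr4:105145875-105147457, plus strand), called in every line. Covered length was 1116 and 1213 bp in GM12878, 795 and 678 bp in HEK293T, 1006 and 1152 bp in HFF1, and 946 and 990 bp in K562. HEK293T was again lowest without overlap, GM12878 and HFF1 overlapped each other, and K562 lay just below both (exact permutation p = 0.0286, adjusted 0.0809). All summits of the strongest peak fell between −201 and −43 bp from the MANE start, with folds from 8.00 to 12.9.

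TET3 had 2 coding starts with different patterns. Its main start (chr2:73984910, plus strand) was covered over 816 and 528 bp in GM12878, 631 and 443 bp in HFF1, 667 and 870 bp in K562, and 0 bp in both HEK293T libraries, a pattern of 2.05% of main groups. GM12878, HFF1 and K562 overlapped each other (exact permutation p = 0.0571, adjusted 0.128). The alternative start downstream (chr2:74002713) was called in all 4 lines, as were 17.8% of alternative groups with a basic transcript. It was covered over 907 and 757 bp in GM12878, 347 and 331 bp in HEK293T, 716 and 539 bp in HFF1, and 692 and 864 bp in K562. Its peak was much the stronger: the fold of the highest peak was 14.8 and 13.7 in HEK293T and 7.80 to 11.7 elsewhere, against 3.77 to 5.24 at the main start. After thinning, the main start kept a peak in both libraries of GM12878 and HFF1 and in 1 of 2 in K562, and the alternative start kept one in all 8. Among the 40000 strongest peaks of each library, the main start was called in K562 alone and the alternative start still in all 4 lines. A further TET3 transcript outside the basic set, starting at 73986526, was called in GM12878 and HFF1 and shares its peaks in part with the main window.

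Across all 16 member groups with a peak, covered length differed between the human lines at an unadjusted exact p under 0.05 in 6 groups, against 41.3% of all groups tested, and no group passed after Benjamini-Hochberg adjustment over 29859 groups, where 0% passed. With 2 libraries per line and a smallest p of 0.00952 the test has little room: a group open in 1 line alone cannot go below 0.143. When covered length was taken as a share of each library's total, 22.5% of all groups passed and so did TET2 and TET3 main (adjusted exact permutation p = 0.0424 for each).

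Genes whose covered promoter length followed TET1 most closely over the 8 human libraries were MSX1, a homeobox gene (Pearson r = 0.9930), ARAP3, a GTPase-activating protein gene (0.9922), and TCEA1, an elongation factor gene (0.9895). They were taken from 17030 genes, of which 61 had r above 0.95. MSX1 was covered over 401 and 352 bp in GM12878, where TET1 had none, so a high r does not mean a closed start. In TET1 and MSX1 alike, GM12878 was lowest, HEK293T next, and HFF1 and K562 were highest and overlapped. The libraries of a line share depth, which enters this measure.

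The gene bodies, taken outside all start-site windows, held 33 and 30 peaks over the 7 genes in GM12878, 10 and 9 in HEK293T, 32 and 31 in HFF1, and 25 and 22 in K562. Peaks touching a start-site window were not counted, while covered length keeps their part outside it. DNMT3B in GM12878 replicate 2 thus had 0 counted peaks and 868 bp covered. The genes differed in which line held most of the covered length. DNMT3A was covered most in GM12878, TET1 and DNMT1 in HFF1, TET2 in GM12878, and TET3 at similar lengths in K562 and GM12878 and not at all in HEK293T. Of all genes with a body of at least 10000 bp, 49.3% and 50.1% had no body peak in the HEK293T libraries.

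**Figure D3:**
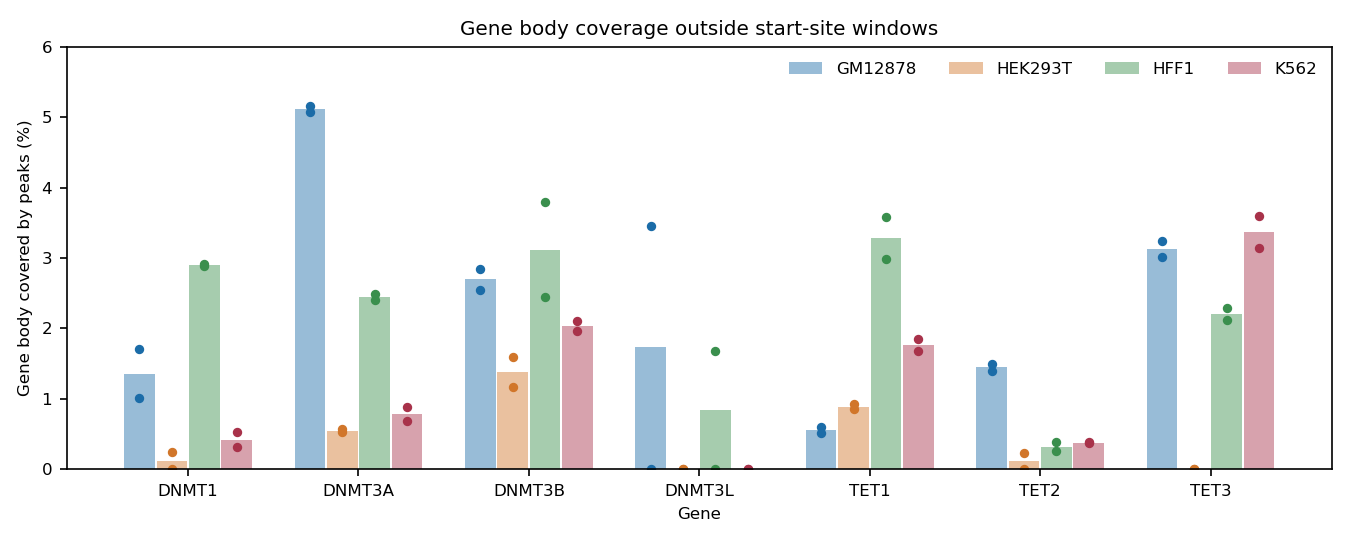
Percent of each gene body, outside start-site windows, covered by peaks in the 4 human lines; bars are means of the 2 replicates shown as points. DNMT3A reaches 5.16% and 5.08% in GM12878, TET1 is highest in HFF1, and TET3 has no covered base in HEK293T, as for 49.3% and 50.1% of genes with a body of at least 10000 bp.

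The DNMT3A body was covered over 5182 and 5103 bp in GM12878, 2501 and 2417 bp in HFF1, 687 and 884 bp in K562, and 529 and 568 bp in HEK293T. Both GM12878 libraries lay in the upper range of genes with a body of at least 10000 bp, above 94.6% and 94.1% of them. The TET1 body was covered over 3971 and 4776 bp in HFF1, 2468 and 2240 bp in K562, 1223 and 1133 bp in HEK293T, and 793 and 692 bp in GM12878, so the line without a peak at the TET1 start also had the least covered TET1 body. DNMT1 was covered over 1804 and 1790 bp in HFF1, 626 and 1051 bp in GM12878, 325 and 194 bp in K562, and 0 and 150 bp in HEK293T. The DNMT1 span runs upstream of the MANE start to chr19:10231286, so this length includes upstream regions. HFF1-specific ones lay at −11471 and −31492 bp from the MANE start, and a region called in GM12878, HFF1 and K562 at −25019 bp. Ranked among genes with a body of at least 10000 bp in the same library, TET1 did not stand out in HFF1. It lay above 77.0% and 85.9% of them in HFF1, 84.8% and 84.1% in HEK293T, and 80.8% and 80.9% in K562. In GM12878 it lay above 38.1% and 35.2%. DNMT1 ranked highest in HFF1, above 76.1% and 78.9%, against at most 64.5% in any other library. In bp, the line with the most covered length did not overlap another line in DNMT3A, TET1 or DNMT1. The test of a difference between lines was passed by these 3 genes (eta squared 0.999, 0.978 and 0.970, each with exact permutation p = 0.00952 and adjusted p = 0.0391). That is 3 of 7, against 24.4% of the 14347 gene bodies tested, and 5 of 7 had an unadjusted exact p under 0.05, against 56.2%.

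TET3 was covered over 4194 and 3665 bp in K562, 3508 and 3781 bp in GM12878, 2470 and 2666 bp in HFF1, and 0 bp in HEK293T. The TET2 body had 1968 and 1833 bp in GM12878 and at most 499 bp in any other library. Neither passed (adjusted exact permutation p = 0.0558 for each). DNMT3B, with 398 to 1297 bp and overlapping lines, did not pass (adjusted 0.109). The 3 calls did not hold in every setting: none of the 7 genes passed after thinning to the HEK293T depth, without GM12878 replicate 2 or without HEK293T replicate 2, but in these 3 settings 0% of all gene bodies passed. Without HEK293T replicate 1 only TET1 passed, beside 19.2% of all bodies. DNMT1 was also lost without either K562 replicate (adjusted exact permutation p = 0.0637 and 0.0631), and the adjusted p of these 3 genes without the other libraries named was between 0.0504 and 0.0676 where they did not pass.

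Merging the peaks of the 8 human libraries gave 78 regions whose strongest summit lay in a gene body. Of these, 55 were called in at least 1 line: 42 in 1 line, 4 in 2, 4 in 3 and 5 in all 4, and 23 in none. Over the gene body regions of all protein-coding genes, 53.6% were called in 1 line, 9.59% in 2, 4.84% in 3, 4.49% in all 4 and 27.5% in none. Regions called in 1 line and free of peaks in all libraries of the other lines are named specific to it. There were 39 such regions, 13 specific to GM12878, 16 to HFF1, 10 to K562 and 0 to HEK293T. Among the regions of all genes, 17.0% were specific to GM12878, 22.9% to HFF1, 6.53% to K562, 1.43% to HEK293T and 47.8% to any line. Thinned to the HEK293T depth, 21 member regions were specific, 7 of them to HFF1, 4 to K562, 1 to HEK293T and the rest to GM12878. No share of all regions is given at that depth, so these counts describe the 7 genes only.

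**Figure D4:**
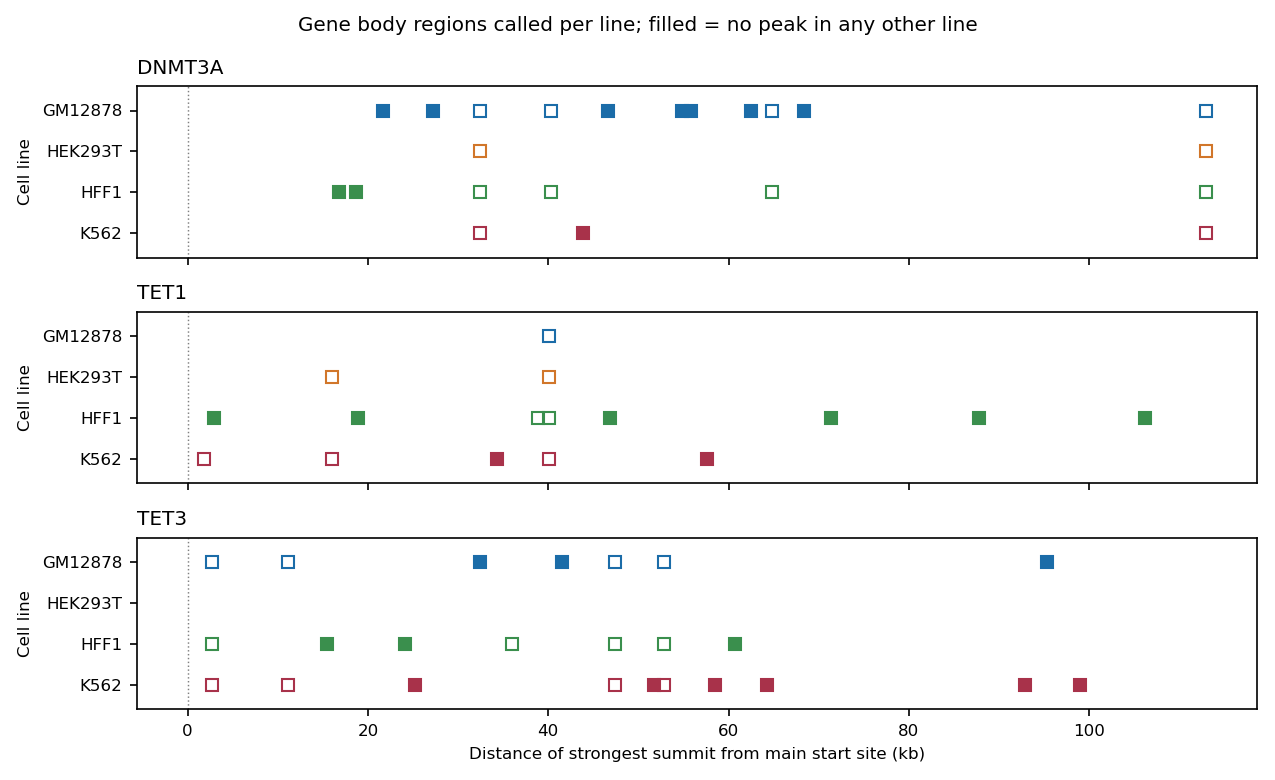
Gene body regions of DNMT3A, TET1 and TET3 called in each human line, placed by the distance in kb of the strongest summit from the main start; filled squares are regions with no peak in any library of another line. DNMT3A has 7 filled squares in GM12878, TET1 has 6 in HFF1, and TET3 has none in HEK293T and 6 in K562.

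In DNMT3A, 7 of 16 regions were specific to GM12878, 2 to HFF1 and 1 to K562. The strongest GM12878 region, by the lower fold of its replicates, was chr2:25294496-25295489 in intron 3, 46586 bp into the gene, with folds of 12.1 and 11.5. The strongest HFF1 region, chr2:25324800-25325359 in intron 1, had folds of 8.65 and 8.82, and the K562 region, chr2:25297917-25298104 in intron 3, folds of 4.55 and 5.84. A region in the last exon, exon 23 (chr2:25228763-25229321), was called in all 4 lines with folds from 7.02 to 13.8.

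In TET1, 6 of 13 regions were specific to HFF1 and 2 to K562. The strongest was chr10:68647790-68648514 in intron 4, 87827 bp from the start, with HFF1 folds of 16.7 and 14.9, against 4.84 and 4.55 for the peak at the TET1 start in the same libraries. The strongest K562 region, chr10:68594494-68594840 in intron 2, had folds of 5.23 and 4.53. GM12878 had 1 called region, chr10:68599855-68600797 in intron 2, which was called in all 4 lines with folds of 10.5 and 10.0 in GM12878, 13.6 and 12.7 in HEK293T, 8.14 and 8.03 in HFF1, and 8.73 and 7.49 in K562. Both GM12878 libraries thus had a peak inside the gene and none at its start.

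TET3 had 21 regions: 6 were specific to K562, 3 to HFF1 and 3 to GM12878. The strongest K562 region was chr2:74049009-74049588 in intron 4 (folds of 13.8 and 12.1) and the strongest GM12878 region chr2:74079692-74080342 in intron 5 (10.9 and 9.48). The strongest HFF1 region, chr2:74045537-74045900 in intron 3, had folds of 6.12 and 8.24. TET2 had 15 regions, of which 10 were called in no line. Its strongest GM12878 region was chr4:105194775-105195218 in intron 2 (8.13 and 9.11), its K562 region chr4:105162101-105162598 in intron 1 (8.42 and 9.06), and its HFF1 region chr4:105246745-105247075 in intron 6 (5.53 and 7.84). DNMT1 had 3 regions specific to HFF1: the strongest at chr19:10173565-10173918 in intron 8 (6.70 and 6.53), the others upstream of the MANE start. DNMT3B had 1, chr20:32776797-32777425 in intron 1 (8.64 and 7.85), beside 2 regions called in all 4 lines: chr20:32789906-32790525 in intron 7 (folds of 6.83 to 14.7) and chr20:32778347-32778898 in intron 1 (folds of 5.76 to 13.3). DNMT3L had 2 regions, both called in no line.

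The 201 bp around the strongest summit of each region were searched on both strands for 6 motifs chosen after the regions were known. These were the AP-1 and octamer motifs spelled out above for the promoters, the GATA motif AGATAA, a core of the CTCF motif, the PU.1 motif GAGGAAGT, and GGAATG, a motif of the TEAD factors. Windows with a match are shown for regions specific to HFF1 in TET1 and DNMT3A, specific to K562 in TET3, and called in all 4 lines in DNMT3B, with the matches in capitals, from the plus strand of GRCh38.

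TET1 HFF1 region, chr10:68648064-68648264: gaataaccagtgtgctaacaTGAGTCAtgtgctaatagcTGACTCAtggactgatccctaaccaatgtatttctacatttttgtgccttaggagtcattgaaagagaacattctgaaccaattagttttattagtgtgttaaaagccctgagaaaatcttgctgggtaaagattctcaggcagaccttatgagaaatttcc
DNMT3A HFF1 region, chr2:25324995-25325195: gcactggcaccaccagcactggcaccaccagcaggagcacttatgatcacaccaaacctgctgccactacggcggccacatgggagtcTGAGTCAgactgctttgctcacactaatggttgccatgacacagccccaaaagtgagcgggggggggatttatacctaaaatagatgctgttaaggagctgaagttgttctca
TET3 K562 region, chr2:74036579-74036779: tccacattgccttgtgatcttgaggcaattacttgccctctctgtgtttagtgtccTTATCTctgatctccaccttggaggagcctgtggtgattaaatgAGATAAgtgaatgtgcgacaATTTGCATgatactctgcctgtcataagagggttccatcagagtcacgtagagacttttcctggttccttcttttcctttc
DNMT3B region of all 4 lines, chr20:32778527-32778727: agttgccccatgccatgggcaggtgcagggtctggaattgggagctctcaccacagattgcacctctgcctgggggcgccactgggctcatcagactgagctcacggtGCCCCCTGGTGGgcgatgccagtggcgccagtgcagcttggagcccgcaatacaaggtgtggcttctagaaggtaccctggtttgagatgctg

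The TET1 window held 2 AP-1 matches and the DNMT3A window 1. Of the 16 HFF1-specific member regions, 5 held AP-1 and 5 held TEAD, beside 31.7% and 20.6% of the 24872 HFF1-specific body regions of all genes. Of 13 GM12878-specific regions, 3 held GATA (10.3% of all such regions), 2 held PU.1 (6.30%) and 1 the octamer (4.86%). AP-1 was in 2 of them (16.2%), and TEAD and the CTCF core in 0 (5.89% and 1.68%). The TET3 window has 2 GATA matches and an octamer. It comes from a weaker K562-specific region (folds of 5.09 and 5.78) than the strongest one named above. Of the 10 K562-specific regions, 2 held GATA, beside 33.0% of all such regions. The CTCF core was in 2 of the 5 regions called in all 4 lines, those in DNMT3A exon 23 and DNMT3B intron 1, beside 26.4% of all such regions.

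In mouse embryonic stem cells the 7 genes had 36 start-site groups, of which 20 had a peak and 19 were called. Of the 13 with a basic transcript, 12 were called. Among all mouse genes 64.9% of groups with an APPRIS principal transcript, GENCODE's mark for the main coding isoform, were called, 43.0% of other groups with a basic transcript and 23.2% of the rest. Peak lists were not compared in length between species.

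**Figure D5:**
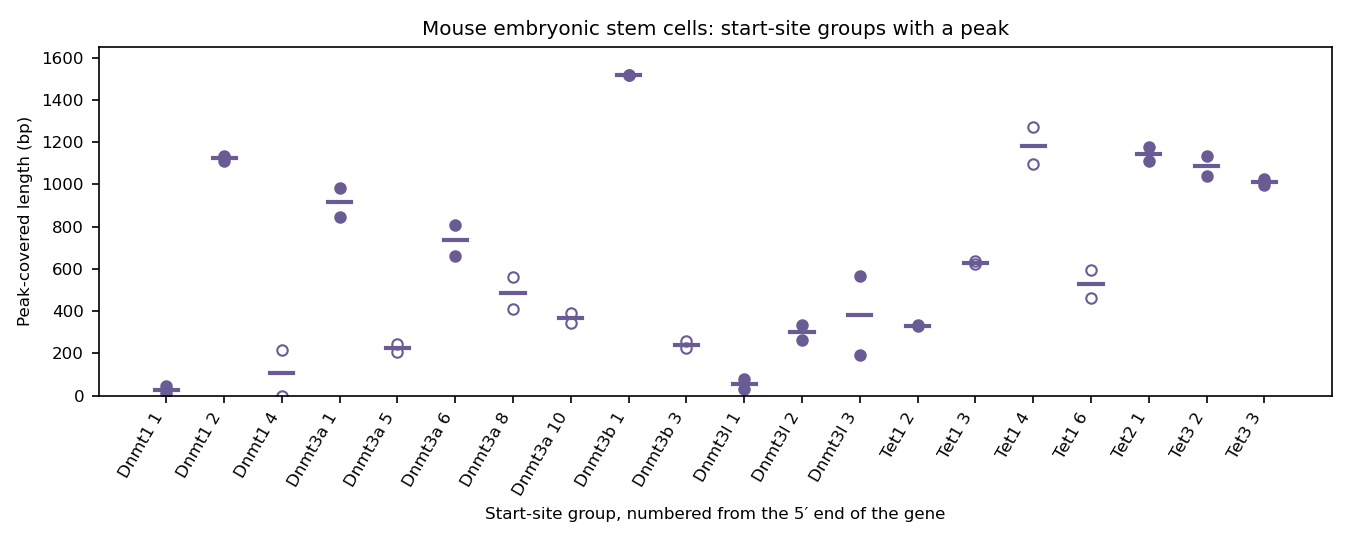
Base pairs covered by peaks in the 2 mESC libraries (circles, with a bar for the mean) at the 20 start-site groups with a peak, numbered from the 5′ end of each gene; filled circles mark groups with a basic transcript. Dnmt3b group 1 is highest at 1516 and 1519 bp, and the first groups of Dnmt1 and Dnmt3l lie near 0.

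Dnmt3b had the longest covered window of the 7 genes, 1516 and 1519 bp at chr2:153649450-153649617 (GRCm38), with folds of 6.95 and 6.98. Dnmt1 was covered over 1111 and 1136 bp at its main start (chr9:20952605-20952979). At the Dnmt1 start known from oocytes (chr9:20959888) only the edge of a peak was inside the window, 43 and 11 bp, and its summits lay 1387 and 1073 bp into the gene, so that start had no summit in its window. Dnmt3a was open at its first start group (984 and 845 bp at chr12:3806007-3807160) and at the start of its short isoform (808 and 661 bp at chr12:3891728-3891744). The folds were 7.46 and 8.08 for the strongest peak at the first, and 3.66 and 3.22 at the second.

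Dnmt3l, without a peak at any human start, had peaks at all 3 of its mouse groups. Coverage was 33 and 80 bp at the first (chr10:78041947-78042287), whose window also holds the start of Aire, an autoimmune regulator gene. It was 265 and 334 bp at the second (78049842 to 78049959), and 564 and 194 bp at the third (78054835 to 78055335). The peak reaching the first window was the strongest in the gene, with folds of 12.5 and 11.6 and summits 1260 and 1265 bp downstream of that start. At the second group the shared peak had summits at −677 and −558 bp with folds of 4.05 and 4.44, and at the third its summit was 71 and 138 bp downstream with folds of 6.42 and 4.31.

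Tet1 was open at 4 groups. The group of its principal transcript (chr10:62899118) was covered over 332 and 327 bp by a peak 774 and 785 bp inside the gene. The groups at 62892986, 62887324 to 62887512 and 62865304 were covered over 636 and 622 bp, 1269 and 1096 bp, and 595 and 463 bp, and none of these 3 has a basic transcript. A further basic transcript, starting at 62880014, had no peak. Tet1 also had the most body peaks of the 7 genes, 21 and 19 in the 2 libraries, in 26 regions of which 14 were found in both replicates. Its body was covered over 6236 and 5362 bp, more than 90.5% and 86.8% of mouse genes with a body of at least 10000 bp. The bodies of Dnmt3a (88.6% and 91.9%) and Tet2 (90.3% and 92.5%) ranked similarly. Tet2 had 1 open start group (1177 and 1109 bp at chr3:133544286-133545139) and 8 body regions, all in both replicates, and Tet3 was open at both coding starts (1132 and 1039 bp at chr6:83456392, and 1024 and 995 bp at chr6:83441632-83441678). At Tet3 the second start had the stronger peak, with folds of 9.99 and 10.5 against 4.10 and 3.75 at the first, the same order as at the 2 human starts.

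The wider pathway was read from 32 genes: maintenance partners of DNMT1, repair and related genes, readers of methylated CpG, modulators, and suppliers of the methyl donor. The 32 also include TRDMT1, an RNA methyltransferase homologue, which was open in every line. A gene counted as open in a line when any of its start-site groups was called. In all 4 human lines 28 of 32 were open, beside 59.6% of all genes, and in mESC all 32 were, beside 73.1%. All 6 maintenance partners, including UHRF1, which brings DNMT1 to hemimethylated DNA, and HELLS, a remodeller, were open in every line. The exceptions included DPPA3, which protects maternal DNA from demethylation, GADD45B, a stress-response gene linked to demethylation, and MBD3, a subunit of the NuRD complex. DPPA3 had no peak in any human library, and GADD45B and MBD3 were called in all lines but HEK293T, where each had a peak in 1 of 2 libraries.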

How the data were processed

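ATAC-seq was measured in 10 libraries, 2 replicates of each of 5 lines, grouped by their labels. The submitters' processing notes name cutadapt 3.2, Bowtie2 2.4.2, Picard and MACS2 2.2.7.1 and the builds hg38 and mm10, without roles or order. The authors deposited 1 narrowPeak list per library, with replicates not pooled. The authors' fold is a linear ratio of the summit over local background, the deposited −log10 p and −log10 q values come from the same call, and the deposited score is 10 times −log10 q cut to a whole number. They are printed per library as descriptions and were not tested between libraries, whose depth differs.

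Peaks on the autosomes and X were compared with GENCODE releases 44 (GRCh38) and M21 (GRCm38), and none passed a chromosome end. Covered length was tested with an exact one-sided permutation test of eta squared over all splits of the 8 human libraries into 4 pairs, with Benjamini-Hochberg adjustment over all groups or bodies and a threshold of 0.05. A test of 1 line against another cannot reach 0.05 with 2 libraries each, so single lines are described. The self-test ran on simulated lengths. Depth was recovered from the deposited fold and p-value as a pileup, which could be solved for 100% of peaks in each library to within 0.002 of the deposited −log10 p. Coordinates count from 1. Python 3.11.15, numpy 2.4.6, pandas 2.3.3, scipy 1.17.1 and pysam 0.24.0 were used.

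The members, gene lists and tests were chosen with earlier results of these data known. Named regions are, for each gene and line, the specific region with the highest lower fold of its replicates and, per gene, the region of all 4 lines with the highest lowest fold. Other regions, and the motifs of body regions, were chosen after their values were seen. The 3 genes of highest Pearson r were taken for members with no start called in all 4 lines but some call, which left TET1. Alternatives changed the peak threshold, list length, depth, overlap, windows, annotation, scaling, replicate block and single libraries left out. Values of 1 pathway gene and 1 marker gene are not reported here.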

Additional observations from a re-analysis of the deposited data

How the results depend on the processing

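The 22 calls at main start sites and the 28 pathway genes open in all 4 lines were 17 and 23 at the lowest, both with the 40000 strongest peaks. No share of all main groups or genes is given for that setting, so the drop is described for these genes only. No start-site group passed the test under any alternative run except covered length as a share of the library, where 2 did. The 3 gene bodies passing the test (24.4% of all bodies) became 0 with −log10 q of at least 10 (21.6% of all), 0 with the 40000 strongest peaks (0% of all), 0 after thinning (0%), 1 with the share of the library (20.7%) and 6 over the whole gene span (60.9%). The mean number of body peaks per human library became 15.2 with −log10 q of at least 10, 11.1 with the 40000 strongest peaks, 15.5 after thinning and 37.6 over the whole span. The 39 line-specific regions became 22 with the 40000 strongest peaks and 21 after thinning, with no share of all regions given in these settings. The cause of these shifts was not tested. Leaving out each library in turn gave 0 to 4 gene bodies (0 without GM12878 replicate 2 or HEK293T replicate 2, where 0% of all bodies passed, and 1 without HEK293T replicate 1, where 19.2% did), 22.7 to 26.1 body peaks, 39 to 48 specific regions, 28 to 29 pathway genes, 0 to 0 start-site groups and 22 to 22 calls. With the replicate number as a replicate block, 0 gene bodies and 0 start-site groups of these genes passed, and 0% of all; the smallest p there is 0.0417, and the adjusted exact p was 0.135 for DNMT1, DNMT3A and TET1. Deviations of same-numbered replicates correlated between −0.0206 and 0.0302, so no pairing by replicate number was seen in these values. Depth limits what HEK293T can show, and its missing peaks at DNMT3A alternative and TET3 main are absences from its list at that depth.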
